A study of Mus musculus with 8 samples.

Results

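The cells described here were neutrophils of the left ventricle with more *Retnlg* and *Mmp8* than *Cxcl3*, *Spp1* and *Il1a*. They were taken from droplet-based single-cell RNA sequencing counts, in which each barcode stands for a droplet and each unique molecular identifier (UMI) for a captured RNA molecule. A barcode first had to hold at least 200 detected genes and at most 30% mitochondrial UMIs. A neutrophil gate then required *S100a8* and *S100a9* to make up at least 2% of its UMIs, *C1qa*, *C1qb* and *C1qc* less than 0.05%, *Dcn* and *Col3a1* less than 0.15%, and *Cd79a* and *Cd3e* at most 1 UMI. Members were then selected on counts, as those with more UMIs of *Retnlg* and *Mmp8* than of *Cxcl3*, *Spp1* and *Il1a*. This rule kept 177 of 11377 passing barcodes in the 0 h library and 1245 of 8260 in the 6 h library, 1422 of 19637 in all. The barcodes of the gate that failed the last condition, 19 at 0 h and 952 at 6 h, served as the nearest comparison and are called other gated neutrophils.

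Neutrophils leave the bone marrow with their granule proteins already made, circulate for a short time and enter injured tissue by rolling and adhering on endothelium. The granules are laid down in sequence, primary granules in the earliest precursors, then secondary (*Ltf*, *Camp*, *Ngp*, *Lcn2*, *Mmp8*) and tertiary ones (*Mmp9*), and *Retnlg* encodes resistin-like gamma, a secreted protein of mature mouse neutrophils. After activation the cells transcribe chemokines and cytokines, among them *Cxcl2*, *Ccl3* and *Il1b*, and in the reperfused heart they are the first leukocytes to arrive in number.

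The study compared hearts of male mice, 10 to 12 weeks old and on a C57BL/6 background by its methods, after ischemia and reperfusion (IR), made by tying off the left anterior descending artery and releasing it, with a sham operation. The labels call the groups IR0h and IR6h, while their protocol text takes left ventricles 6 h after IR or sham, so whether 0 h stands for sham surgery is not settled, and the libraries are named here by their hours. No genotype is given for these samples in their labels. Each group has 4 labelled samples, with 3 hearts pooled into a sample, but its counts came as 1 matrix in which no barcode is tied to a sample. Each group was therefore 1 library, no difference between the libraries has a replicate check, no test was made, and every interval below is a 95% interval for counting error only. No blood sample was part of the data, so cells still inside vessels and cells in the tissue cannot be told apart. In these suspensions, fewer cells entering the droplets and less RNA per cell likewise cannot be told apart from the counts alone.

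In the 0 h library the members held 619501 UMIs, with a median of 2196 UMIs and 722 genes per barcode. In the 6 h library they held 5973898 UMIs, with medians of 4053 UMIs and 1072 genes. The 6 h values therefore rest on more molecules and have narrower intervals. Of the barcode sequences of all cells, 30 occurred in both libraries, 1 of them among the members.

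The neutrophil label was checked against marker genes. *S100a8* and *S100a9*, the subunits of calprotectin, had UMIs in every member because the rule asked for them. *Csf3r*, the receptor for granulocyte colony-stimulating factor, was not used by the rule and had UMIs in 166 of 177 members at 0 h and 1190 of 1245 at 6 h. Its level was 1185 UMIs per 1000000 UMIs of the group (CPM) at 0 h and 1232 CPM at 6 h, against 20.6 and 64.3 CPM in B cells, which should lack it. A *Csf3r* UMI was also found in 140 of 251 and 327 of 586 Ly6c2 monocytes, a comparison group described below. With each barcode thinned at random to 500 UMIs, the shares were 54.2% and 47.1% in members and 6.77% and 4.95% in these monocytes. *Lcn2* (lipocalin-2) had UMIs in 114 and 1173 members. *Ly6g*, the surface antigen by which mouse neutrophils are sorted, was found in 41 and 414, and *Ngp*, a secondary granule protein, in 12 and 212. *Mmp8* itself was found in 84 members at 0 h and 918 at 6 h, so that at 0 h most members entered through *Retnlg*, which was found in 173 of 177 and 1236 of 1245. Most members thus held *Csf3r* UMIs, but the "blood-like" part of the working name was not measurable, and at 6 h 824 of the 1245 members held a *Cxcl3* UMI. They are called *Retnlg*/*Mmp8* neutrophils.

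**Figure D1:**
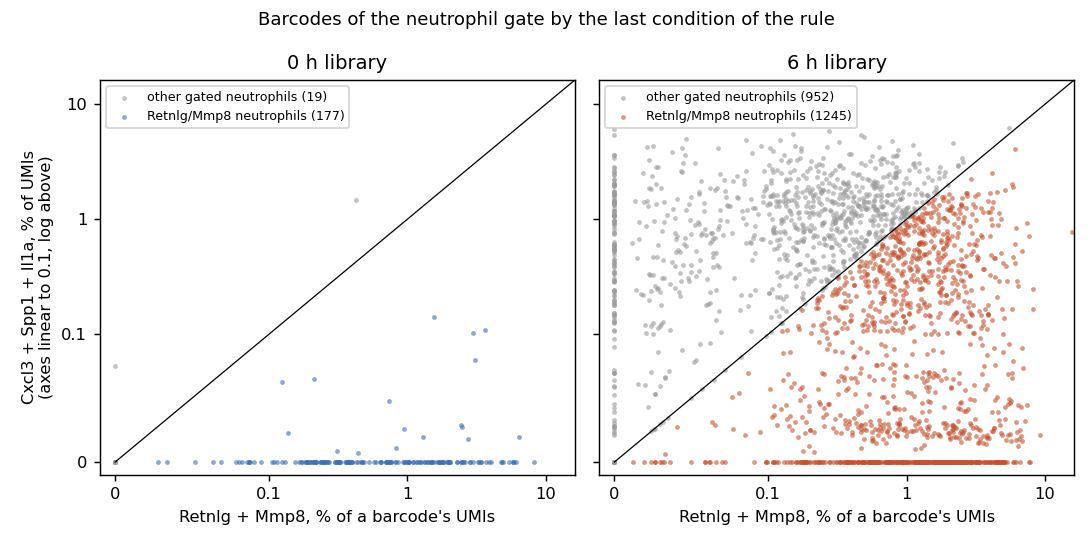
Each point is a barcode of the neutrophil gate, with its percent of UMIs from Retnlg and Mmp8 (x axis) and from Cxcl3, Spp1 and Il1a (y axis), both linear up to 0.1 and logarithmic above, in the 0 h library (left) and the 6 h library (right). Colored points below the diagonal are the 177 and 1245 members, grey points the 19 and 952 other gated neutrophils; at 0 h 160 members lie on the bottom edge, with no UMI of the 3 genes, against 343 at 6 h.

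The share of members differed between the libraries. They were 1.56% of passing barcodes at 0 h (interval 1.34 to 1.80%) and 15.1% at 6 h (14.3 to 15.9%). Of the neutrophil gate they were 90.3% at 0 h (177 of 196, 85.3 to 94.1%) and 56.7% at 6 h (1245 of 2197, 54.6 to 58.8%). The plot of the gate shows that at 0 h members and other gated neutrophils did not form separate groups. Of the 19 other gated barcodes, 17 held no UMI of any of the 5 deciding genes and were outside only because 0 is not more than 0. At 6 h only 18 of 952 were of that kind, and members and others lay on both sides of the diagonal without a gap. Barcodes with a difference of 1 UMI, just inside the rule, numbered 9 at 0 h and 33 at 6 h, and those with a difference of 0, just outside, numbered 17 and 44. The 33 just inside at 6 h had 38905 CPM of *Cxcl2* and 1834 CPM of *Lcn2*, the 44 just outside 40062 and 1844 CPM. At the *S100a8* and *S100a9* threshold, 14 members at 0 h and 39 at 6 h lay between 2 and 3%, and 15 and 38 barcodes meeting the other conditions lay between 1 and 2%.

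Some members also held RNA of macrophages and monocytes, and more of them did at 0 h. Over 0.1% of the UMIs came from 12 macrophage and monocyte marker genes in 69 of 177 members at 0 h, and these 69 held 57.7% of the members' UMIs. At 6 h this was so for 111 of 1245 members with 14.2% of the UMIs. Values without these marker-bearing barcodes (108 and 1134 members left) are given beside the list counts and genes that changed most with them. Their part in those results was not tested otherwise.

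Only list genes with a match to a motif named below could be shown here, and not all matches are printed. The sequences below lie upstream of some of these genes that differed by at least 2-fold between the libraries. They are reference sequences from RefSeq on GRCm38.p6, the assembly behind the build mm10 to which the authors aligned, each of 30 bases, 5′ to 3′ along the strand of the gene. The position given with each, also where it is called the first base, is that of the first capital letter. The coordinates span all 30 bases. Capitals mark a match, on either strand, to GAAANNGAAA, the core of the interferon-stimulated response element.
*Ifit1*, chr19:34640775-34640804, plus strand, first base at position -104 from the gene start: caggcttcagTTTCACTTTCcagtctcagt
*Ifit3*, chr19:34583363-34583392, plus strand, position -156: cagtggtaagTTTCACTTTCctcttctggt
*Isg15*, chr4:156200871-156200900, minus strand, position -72, with overlapping matches on both sides: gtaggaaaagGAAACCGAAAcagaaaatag
*Rsad2*, chr12:26456553-26456582, minus strand, position -120: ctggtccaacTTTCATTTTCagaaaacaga
*Gbp2*, chr3:142620594-142620623, plus strand, position -59: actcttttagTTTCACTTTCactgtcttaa
In the next 3 the capitals mark GGGANNTTCC, a kappaB site, also on either strand.
*Cxcl2*, chr5:90903792-90903821, plus strand, position -97: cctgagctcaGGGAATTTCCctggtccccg
*Nfkbia*, chr12:55492657-55492686, minus strand, position -29: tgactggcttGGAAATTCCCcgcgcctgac
*Csf1*, chr3:107760604-107760633, minus strand, position -154: gggccttgagGGAAAGTCCCtaggggccag
All lie upstream of the gene start, in the stretch from 250 bases before to 50 after it that was searched. GAAANNGAAA occurred in 7 of the 16 interferon response genes with such a stretch (43.8%), in 3 of 14 cytokine and chemokine genes (21.4%), in 0 of 16 immediate early and NF-κB feedback genes and in 3.44% of 32851 promoters. GGGANNTTCC occurred in 4 of the 14 cytokine and chemokine genes (28.6%), in 4 of the 16 interferon response genes (25.0%), in 1 of the 16 feedback genes (6.25%) and in 1.47% of all promoters. List genes were counted once if any of their promoters matched, whereas the 3.44% and 1.47% count single promoters, so the units differ. The cytokine and chemokine counts include genes of the rule, *Spp1* for the first motif and *Cxcl3* for the second. A match is a description of the letters, and binding was not measured.

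At 6 h the members had higher levels of chemokine and cytokine genes and of *Ier3*, *Nfkbia* and *Bcl2a1b* than at 0 h, and lower levels of most interferon response and antigen presentation genes, while *Csf3r* stood at a similar level. Of 1155 genes with a mean of at least 100 CPM over both libraries, 156 were at least 2-fold higher at 6 h (13.5%) and 198 at least 2-fold lower (17.1%), with a median log2 ratio of -0.18. Without the marker-bearing barcodes, 143 of 1063 genes were higher and 101 lower. Genes of the rule and mitochondrial genes were left out of these counts. Gene lists are read below against 13.5% and 17.1%. Their counts without the marker-bearing barcodes are read against 143 and 101 of 1063.

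Cytokines and chemokines were higher at 6 h. All 11 genes of the list outside the rule that passed the level filter were past 2-fold, with a median log2 ratio of 1.96, and 8 of 11 were past it without the marker-bearing barcodes. *Ccl3*, a chemoattractant for monocytes and neutrophils, was at 213 CPM at 0 h (178 to 253) and 4333 CPM at 6 h (4280 to 4386), a log2 ratio of 4.35 (4.10 to 4.60). It was found in 38 of 177 and 978 of 1245 members, and its level at 6 h was far outside the counting interval at 0 h. *Cxcl2*, a ligand of the neutrophil receptor CXCR2, was at 3797 and 30686 CPM, a log2 ratio of 3.01. *Ccl4* was at 720 and 5523 CPM, and *Il1b*, encoding interleukin-1β, at 7469 and 15096 CPM, the smallest difference of the list with a log2 ratio of 1.02. Antagonists were among the higher genes too. *Il1rn*, which encodes the interleukin-1 receptor antagonist, was at 228 and 1338 CPM, and *Il1r2*, the decoy receptor, at 720 and 1656 CPM. *Tnf* had a log2 ratio of 1.96, *Osm* (oncostatin M) of 1.90, *Ptgs2* (cyclooxygenase-2) of 1.90, *Csf1* of 2.13 and *Ccl6* of 1.50. *Il1b*, *Il1r2* and *Ccl6* were the 3 genes under 2-fold without the marker-bearing barcodes, with log2 ratios of 0.64, 0.84 and 0.97. *Cxcl1* and *Ccl2*, which are on no list, were among the 15 largest ratios, at 16.1 and 195 CPM and at 30.7 and 239 CPM. Both were low in the members, and *Ccl2* was at 3202 CPM in the monocytes of the 6 h library and at 2012 CPM in its B cells.

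Of 17 immediate early and NF-κB feedback genes 5 were past 2-fold higher and 0 lower, with a median log2 ratio of 0.67. It was 0.31, with 6 higher and 1 lower, without the marker-bearing barcodes. The 5 among all members were *Ier3* (373 and 3932 CPM), *Nfkbia*, which encodes the NF-κB inhibitor IκBα (1404 and 6146 CPM), *Tnfaip3*, encoding the deubiquitinase A20 (165 and 618 CPM), *Nfkbiz* (594 and 1625 CPM) and *Egr1* (349 and 1063 CPM). *Fos* stood at 1585 and 1071 CPM and *Jun* at 271 and 247 CPM, and *Atf3*, the gene the study is about, at 410 and 223 CPM with a log2 ratio of -0.88 (-1.08 to -0.68). *Atf3* was thus lower at 6 h in these neutrophils by less than 2-fold, and at 446 and 544 CPM in the monocytes.

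Of 9 genes in the survival and death list 6 were past 2-fold higher at 6 h and 0 lower, with a median log2 ratio of 1.68, and 5 were, with a median of 1.28, without the marker-bearing barcodes. *Bcl2a1b* was at 203 and 1452 CPM, *Bcl2a1a* at 50.0 and 341 CPM and *Bcl2a1d* at 116 and 422 CPM, which are near-identical copies of an anti-apoptotic BCL2 relative and may share reads. Their log2 ratios of 2.84, 2.77 and 1.86 became 3.49, 4.17 and 4.42 without the marker-bearing barcodes. *Gadd45b* was at 392 and 1636 CPM and *Bcl2l11*, encoding the pro-apoptotic BIM, at 71.0 and 227 CPM, and *Cflar* had a log2 ratio of 1.03. *Mcl1*, which keeps neutrophils alive and turns over quickly, was at 2303 and 3776 CPM.

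Interferon-induced genes were lower at 6 h. Of 15 genes 0 were higher and 11 were at least 2-fold lower at 6 h, with a median log2 ratio of -2.18, and 12 were lower without the marker-bearing barcodes. *Ifit3* was at 880 CPM at 0 h (807 to 957) and 20.1 CPM at 6 h (16.7 to 24.0), a log2 ratio of -5.45 (-5.75 to -5.17), and was found in 118 of 177 and 46 of 1245 members. *Irf7*, the transcription factor that amplifies the type I interferon response, was at 767 and 49.0 CPM. *Isg15*, a ubiquitin-like modifier, was at 1960 and 352 CPM, *Rsad2* (viperin) at 847 and 163 CPM and *Ifitm3* at 7525 and 1656 CPM. *Ifi27l2a*, *Bst2* (tetherin), *Oasl1* and *Ifit3b* were also among the 15 smallest ratios, with log2 ratios of -4.24, -4.30, -3.62 and -4.74, and *Ifit3b* is a close copy of *Ifit3*. Not every interferon-linked gene followed. *Slfn1* stood at 694 and 806 CPM, *Ifitm2* at 5014 and 4235 CPM and *Ifitm1* at 5984 and 3550 CPM.

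Antigen presentation genes were lower at 6 h as well, 6 of 6 past 2-fold with a median log2 ratio of -2.10, and 4 of 6 without the marker-bearing barcodes. *H2-K1* was at 1772 and 435 CPM, *B2m*, the light chain of class I, at 2586 and 999 CPM, *H2-D1* at 4321 and 1986 CPM and *Psmb8*, an immunoproteasome subunit, at 389 and 85.7 CPM. These 4 were found in 84 to 174 of the 177 members at 0 h. Without the marker-bearing barcodes their log2 ratios were -1.09, -0.98, -1.10 and -1.63. By contrast, 79.3% of the *H2-Eb1* UMIs and 61.3% of the *Cd74* UMIs at 0 h lay in 2 barcodes each, and without the marker-bearing barcodes the log2 ratio of *Cd74* went from -2.52 to -0.60.

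**Figure D2:**
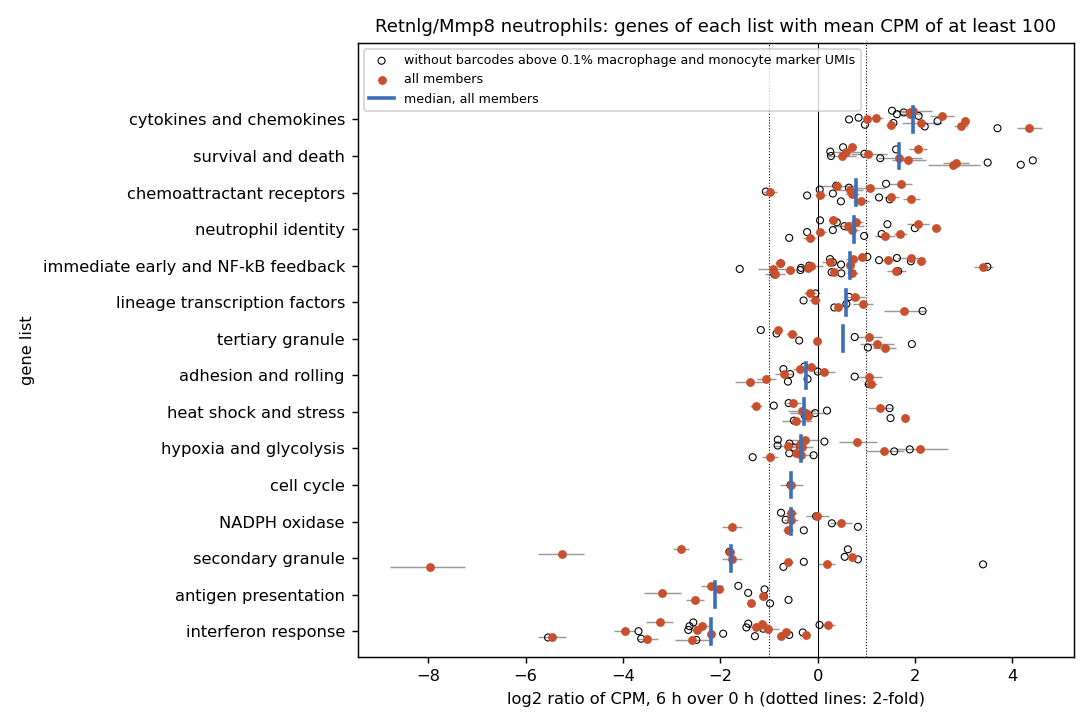
Log2 ratio of CPM at 6 h over 0 h in Retnlg/Mmp8 neutrophils (x axis) for the genes of each list (rows) with a mean of at least 100 CPM, without the genes of the rule. Filled points are all members with their 95% counting interval in grey, open points the members without barcodes above 0.1% macrophage and monocyte marker UMIs, and blue bars the medians of filled points, which run from -2.18 for the interferon response to 1.96 for cytokines and chemokines; lists of markers of other cells are not drawn.

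Granule genes were read by lists named for the granule types. No primary granule gene passed the level filter (0 of 6), and their summed level was 9.69 CPM at 0 h and 14.1 CPM at 6 h. A UMI of any of them was found in 6 of 177 and 62 of 1245 members, and in 35 of 251 and 233 of 586 monocytes. Of 8 secondary granule genes outside the rule 0 were higher and 5 lower at 6 h, with a median log2 ratio of -1.79, but 3 of the 5 rested on 2 barcodes. Without the marker-bearing barcodes the median was 0.55, with 1 gene higher and 1 lower and no value for *Ltf*. It was 0.12, with 2 higher and 3 lower, without the 2 barcodes richest in each gene. The direction of this list between the libraries therefore depended on few barcodes. At 0 h *Ngp* had 510 UMIs, of which 2 barcodes held 309 and 173. *Camp* (cathelicidin) had 99.3% of its UMIs and *Ltf* (lactoferrin) 99.5% in 2 barcodes. These 2 members together held 32802 UMIs, with 14694 CPM of *Ngp*, 11493 CPM of *Lcn2*, 122 CPM of *Csf3r* and 0 of *Cxcl2*. A UMI of any of the 3 genes was found in 14 of 177 members at 0 h and 248 of 1245 at 6 h. Without the 2 richest barcodes of each library *Ngp* had a log2 ratio of 0.99 in place of -2.81, *Ltf* of 1.93 in place of -5.25 and *Camp* of -1.32 in place of -7.96. At 6 h *Ngp* was spread over 212 members and its 2 richest barcodes held 14.4% of the UMIs. The other lower genes were *Lyz2* (lysozyme), at 5966 and 1700 CPM, and *Cybb*, at 428 and 126 CPM, and *Cybb* turned to a log2 ratio of 0.83 without the marker-bearing barcodes.

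*Lcn2* stood at 2542 CPM at 0 h and 4126 CPM at 6 h, a log2 ratio of 0.70 (0.62 to 0.77). *Mmp8*, the neutrophil collagenase and a gene of the rule, was at 389 and 1146 CPM, and *Retnlg*, the other one, at 12878 and 16038 CPM. As both chose the members, these 2 pairs are a description. Of 6 genes outside the rule in the tertiary granule list 3 were higher and 0 lower, with a median log2 ratio of 0.52. Without the marker-bearing barcodes 2 were higher and 1 lower, with a median of 0.19. The 3 among all members were *Arg2* (252 and 653 CPM), *Cd177* (113 and 261 CPM) and *Itgam*, encoding CD11b (228 and 473 CPM). This was a working list, and not all its genes encode proteins of that granule type (*Arg2* encodes a mitochondrial enzyme). *Mmp9* was at 1085 and 749 CPM, *Slpi* at 3635 and 2068 CPM and *Hp* (haptoglobin) at 2102 and 2075 CPM. In the members that held no *Cxcl3*, *Spp1* or *Il1a* UMI the log2 ratio of *Cd177* was -0.15 in place of 1.21.

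**Figure D3:**
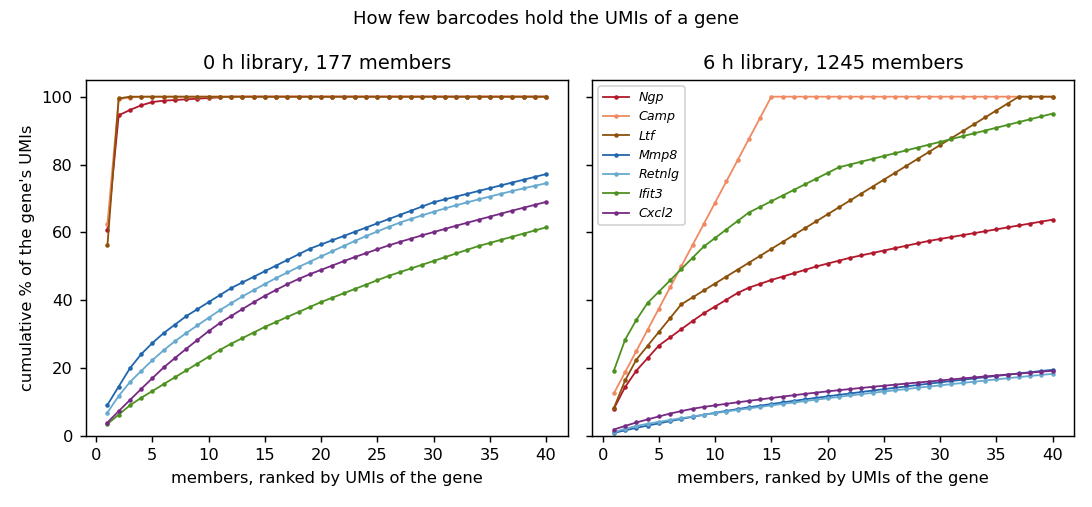
Cumulative percent of a gene's UMIs (y axis) held by the members richest in it, ranked from 1 to 40 (x axis), in the 0 h library (left) and the 6 h library (right). At 0 h the first 2 members hold 94.5% of Ngp, 99.3% of Camp and 99.5% of Ltf UMIs, while Mmp8, Retnlg, Cxcl2 and Ifit3 climb slowly; at 6 h the first 2 hold 14.4% of Ngp UMIs.

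Other neutrophil genes were level or higher at 6 h. Of the 10 identity genes outside the rule 4 were past 2-fold higher and 0 lower, with a median log2 ratio of 0.75, and 3 were higher, with a median of 0.47, without the marker-bearing barcodes. *G0s2* was at 1579 and 8539 CPM, *Stfa2l1* (a stefin A) at 266 and 1104 CPM, *Clec4d* at 773 and 2511 CPM and *Cd33* at 342 and 893 CPM, while *Csf3r* had a log2 ratio of 0.06 (-0.05 to 0.17). *S100a8*, a gene of the rule, stood at 46056 and 55722 CPM and *S100a9*, another, at 91685 and 86880 CPM.

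Of 10 genes for chemoattractant receptors, which guide neutrophils, 4 were past 2-fold higher and 0 lower, with a median log2 ratio of 0.79. The counts were 3 higher and 1 lower, with a median of 0.43, without the marker-bearing barcodes, where *Fpr2* had a log2 ratio of 0.64 and *Cxcr4* of -1.07. *Ccr1*, a receptor for CCL3, was at 494 and 1872 CPM, *Ptafr*, for platelet-activating factor, at 242 and 788 CPM, *Ccrl2* at 589 and 1678 CPM and *Fpr2*, for formyl peptides, at 160 and 335 CPM. *Cxcr2* was at 678 and 1104 CPM and *Cxcr4*, which holds neutrophils in the marrow and returns aged ones to it, at 751 and 381 CPM, a log2 ratio of -0.98 (-1.12 to -0.83). Adhesion genes went both ways, with 2 of 8 higher, 2 lower and a median log2 ratio of -0.25, and 1 higher and 0 lower without the marker-bearing barcodes. *Cd44*, a receptor for hyaluronan, was at 828 and 1758 CPM. *Itga4* and *Itgal*, the integrin chains that passed 2-fold lower, had log2 ratios of -1.40 and -1.06, and of -0.61 and -0.21 without the marker-bearing barcodes.

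The remaining lists held few genes past 2-fold. Of 6 NADPH oxidase genes *Cybb* alone was lower, with a median log2 ratio of -0.55 over the list. Without the marker-bearing barcodes, where *Cybb* had a log2 ratio of 0.83, 0 of 6 were lower and the median was -0.16. *Ncf1* stood at 291 and 404 CPM and *Rac2* at 1102 and 758 CPM. Of 10 hypoxia and glycolysis genes 2 were higher and 0 lower, with a median log2 ratio of -0.33, and 2 were higher and 1 lower (*Aldoa*) without the marker-bearing barcodes. *Hilpda*, a lipid droplet protein induced by hypoxia, was at 50.0 and 216 CPM and *Hif1a* at 93.6 and 241 CPM, whereas *Aldoa*, an enzyme of glycolysis, was at 618 and 313 CPM and *Gapdh* at 1622 and 1194 CPM. Of 8 heat shock and stress genes 2 were higher and 1 lower, with a median log2 ratio of -0.28, and 2 were higher and 0 lower without the marker-bearing barcodes. *Fth1*, the ferritin heavy chain, was at 8289 and 28813 CPM with UMIs in 176 of 177 and 1245 of 1245 members, *Hspa5* at 205 and 500 CPM and *Hspa8* at 1209 and 503 CPM, while *Ftl1*, the light chain, stood at 6529 and 5687 CPM. Of 6 lineage transcription factors *Bhlhe40* alone was past 2-fold higher (82.3 and 280 CPM), the median log2 ratio was 0.59, and *Cebpb* was at 5425 and 7192 CPM and *Spi1* at 978 and 881 CPM. The only cell cycle gene that passed the level filter, *Cks2*, was at 279 and 192 CPM, and *Mki67*, *Top2a*, *Ube2c* or *Birc5* UMIs were found in 2 of 177 and 22 of 1245 members.

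Genes outside the lists were also among the 15 largest and 15 smallest ratios. Among the former were *Rbpj*, the DNA-binding partner of Notch (16.1 and 214 CPM), *Txnrd1*, thioredoxin reductase (19.4 and 214 CPM), *Clec4n* (dectin-2, 33.9 and 288 CPM), *Tes* (53.3 and 417 CPM), *Rhoh* (35.5 and 251 CPM), *Basp1* (160 and 1097 CPM) and *Rgcc* (38.7 and 258 CPM). Their log2 ratios lay between 2.16 and 3.81 without the marker-bearing barcodes. Among the latter were *Plac8* (2722 and 235 CPM), *Ly6i* (273 and 4.18 CPM), *Gngt2* (793 and 60.9 CPM), *Pou2f2* (318 and 17.1 CPM) and *Ms4a4c* (337 and 27.5 CPM). Of these *Plac8* kept a log2 ratio of -3.12 without those barcodes, *Ly6i* had -2.70, and *Gngt2*, *Pou2f2* and *Ms4a4c* were left with -0.76, -1.04 and -0.59. *Nppa*, which encodes atrial natriuretic peptide, a cardiomyocyte hormone, had 326 UMIs at 0 h, of which 313 lay in 1 member.

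Markers of other cells were low in the members, with some barcodes apart. The summed level of the 12 macrophage and monocyte markers was 2387 CPM at 0 h and 608 CPM at 6 h. Without *C1qa*, *C1qb* and *C1qc*, which belong to the rule, they made up a median of 0.0582% of a barcode's UMIs at 0 h (90th percentile 0.478%). At 6 h this median was 0.0254% (90th percentile 0.0881%). Of the 4 markers that passed the level filter 3 were lower at 6 h, with a median log2 ratio of -2.06. Without the barcodes holding these markers 0 were lower, and *Ms4a6c* had no value. As the markers themselves decide which barcodes are left out, that 0 is no check on them. *Mertk* and *Cd209a* were at 0 UMIs at 0 h. Erythroid genes summed to 3592 and 617 CPM and 4 of 4 were lower with a median log2 ratio of -2.42, though 4 of 4 were higher without the marker-bearing barcodes, and 1297 of the 1341 *Hbb-bs* UMIs at 0 h lay in 1 member. Cardiomyocyte markers summed to 612 and 110 CPM, fibroblast markers to 433 and 325 CPM, mural markers to 303 and 296 CPM, endothelial markers to 273 and 114 CPM and T and NK cell markers to 168 and 47.0 CPM. B cell markers summed to 24.2 and 4.69 CPM, platelet markers to 32.3 and 33.0 CPM and markers of eosinophils, basophils and mast cells to 3.23 and 7.20 CPM, with 6 of those 7 at 0 UMIs at 0 h. Of fibroblast and endothelial markers 1 each passed the level filter, *Gsn* with a log2 ratio of -0.56 and *Fabp4* with -1.29, and of mural markers 2, *Acta2* with 1.37 and *Rgs5* with -0.69.

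To compare barcodes of unequal depth, each was thinned at random to 500 UMIs. A *Cxcl2* UMI was then found in 59.9% of members at 0 h (52.3 to 67.2%) and 97.8% at 6 h (96.8 to 98.5%), and without thinning in 78.0% and 99.8%. For *Ccl3* the shares were 7.34% and 52.0%, for *Ier3* 11.3% and 74.5% and for *G0s2* 48.6% and 82.7%. *Ifit3* was found in 40.1% at 0 h (32.8 to 47.7%) and 1.04% at 6 h (0.557 to 1.78%), and *Isg15* in 52.0% and 11.2%. At 0 h these interferon genes were thus spread over many members. *Ngp* was found in 2.82% and 3.45%, and *Ly6g*, in 7.34% and 8.67%, whose intervals overlapped between the libraries. In B cells, which should lack these neutrophil genes, *Cxcl2* was found in 5.17% at 0 h and 28.6% at 6 h after thinning, with median depths of 3141 and 3571 UMIs. Shares in members lay above these in both libraries, and what part free RNA had in them was not tested.

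**Figure D4:**
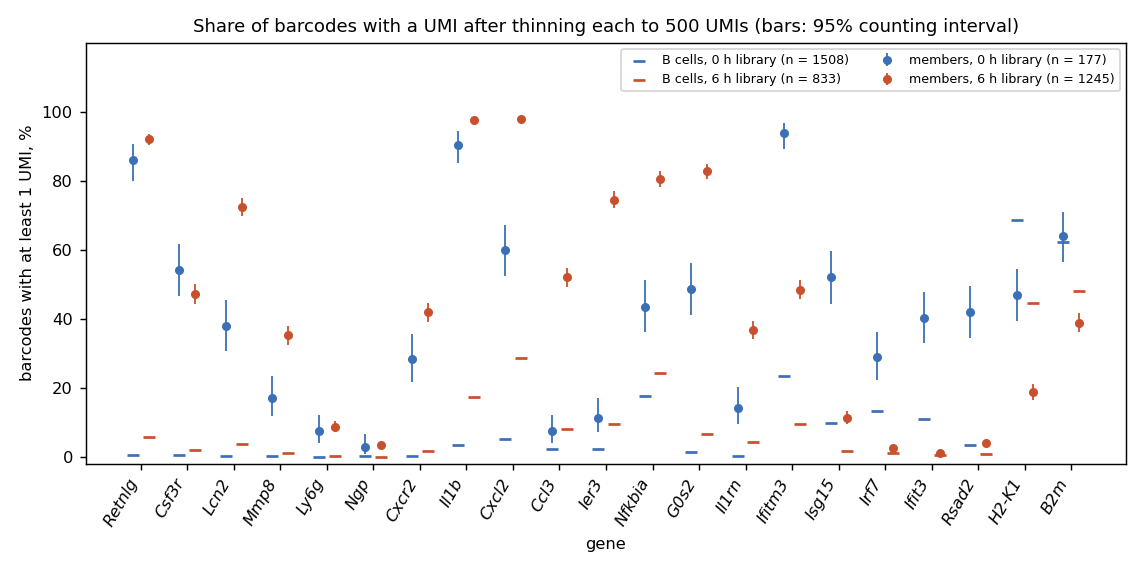
Percent of barcodes with at least 1 UMI of each gene (y axis) after every barcode was thinned to 500 UMIs, for members (points, with 95% counting intervals) and B cells (dashes) of the 0 h (blue) and 6 h (red) libraries. The chemokine and NF-κB genes are found in more members at 6 h (Cxcl2 59.9% and 97.8%), the interferon genes in fewer (Ifit3 40.1% and 1.04%), and Ngp and Ly6g overlap.

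Members and other gated neutrophils were then compared within each library. Since the rule splits the gate by measured counts, all of this is a description. At 6 h 1047 genes had a mean of at least 100 CPM in the pair, of which 30 were at least 2-fold higher in members (2.87%) and 33 at least 2-fold lower (3.15%). *Ly6g* was at 226 CPM in members and 68.8 CPM in the others, *Pglyrp1*, an antibacterial granule protein, at 939 and 321 CPM, *Anxa1* (annexin A1) at 712 and 212 CPM, *Hmgb2* at 678 and 247 CPM and *Slc2a3*, a glucose transporter, at 153 and 54.1 CPM. *R3hdm4*, *Cdkn2d*, *Dhrs7*, *Eif4ebp1* and *Gpi1* completed the 10 highest. The lowest were led by *Ccl7*, *Ccl2*, *Hbegf* and *Ccl3*, the last at 4333 CPM in members and 11401 CPM in the others, followed by *F10*, *Hilpda* (216 and 560 CPM), *Arid5b*, *Ccl4*, *Cstb* and *Il23a*.

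The comparison in both libraries is limited by 0 h, where the 0 h values of the others rest on 19 barcodes with 34109 UMIs. Of 1160 genes 12 were higher in members in both (1.03%) and 9 lower (0.776%). The higher ones included *Anxa1* (797 and 235 CPM at 0 h), *Wfdc21* (1650 and 410 CPM at 0 h, 2062 and 918 CPM at 6 h), *Tspo*, *Prr13*, *Tkt*, *Dhrs7* and *R3hdm4*. *Ngp* and *Nppa* were also among them, but at 0 h 94.5% of the *Ngp* UMIs lay in 2 barcodes and 313 of the 326 *Nppa* UMIs in 1. The 9 lower ones were *Ccl3*, *Tnf*, *Csf1*, *Basp1*, *Bcl2a1b*, *Bcl2a1a*, *Clec4n*, *Cpeb4* and *Rgcc*. For *Tnf* the levels were 103 CPM in members and 293 CPM in the others at 0 h, and 402 and 959 CPM at 6 h. Of the cytokine and chemokine genes 5 of 12 were lower in members at 6 h and 0 higher, with a median log2 ratio of -0.70, and of the identity genes 3 of 10 were higher and 0 lower, with a median of 0.24. The medians of the interferon list (-0.35) and the tertiary granule list (0.22) lay within 2-fold and none of their genes passed it.

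Comparison with Ly6c2 monocytes and B cells of the same libraries showed which differences the members shared. The monocytes (251 at 0 h, 586 at 6 h) were barcodes outside the gate with *Csf1r* and at least 0.1% *Ly6c2* and *Ccr2* UMIs. *Ifit3* was at 442 CPM at 0 h and 4.73 CPM at 6 h in monocytes and at 246 and 22.8 CPM in B cells, so it was lower at 6 h in all 3 cell types. *Irf7* was at 1305 and 45.9 CPM in monocytes and 332 and 32.3 CPM in B cells. Over the interferon list the median log2 ratio was -3.22 in monocytes and -1.39 in B cells, and over the cytokine list 2.96 and 2.69. B cells, which are not known as a source of *Cxcl2*, held it at 422 and 3498 CPM. *G0s2* differed in another way, with 72.3 and 68.1 CPM in monocytes against 1579 and 8539 CPM in the members, and in monocytes *Cxcr2* was likewise low at 19.8 and 15.5 CPM and *Mmp9* at 20.7 and 4.33 CPM. *Chil3* was at 457 and 518 CPM in members and at 1242 and 6671 CPM in monocytes, and 63.6% of its UMIs in the 0 h members lay in 2 barcodes. Its log2 ratio in members was 0.18, and 3.40 without the marker-bearing barcodes.

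**Figure D5:**
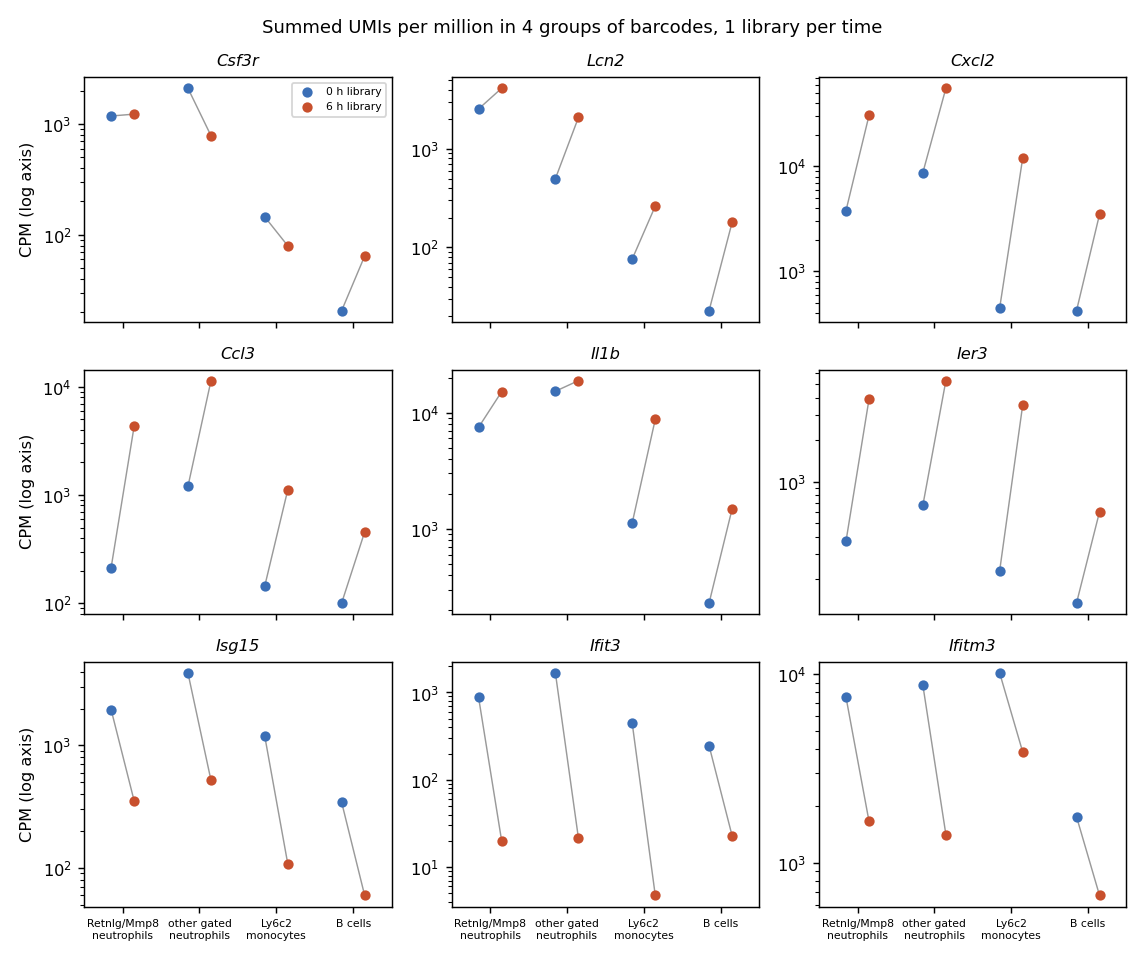
CPM (log axis) of 9 genes in Retnlg/Mmp8 neutrophils, other gated neutrophils, Ly6c2 monocytes and B cells, with 1 point for the 0 h library (blue) and 1 for the 6 h library (red). Isg15, Ifit3 and Ifitm3 are lower at 6 h in all 4 groups and Cxcl2, Ccl3 and Ier3 higher in all 4, while Csf3r is level in members (1185 and 1232 CPM) and far lower in monocytes and B cells.

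The members varied among themselves. The interferon list made up a median of 3.13% of a barcode's UMIs at 0 h (quartiles 2.41 and 4.16%) and 1.16% at 6 h (0.815 and 1.66%), so that the middle ranges did not overlap. The cytokine and chemokine genes outside the rule made up 1.95% (0.950 and 2.93%) and 5.70% (3.79 and 8.33%). Members were also ordered by their *Retnlg* and *Mmp8* share and divided into 3 equal groups, of 59 at 0 h and 415 at 6 h. From the lowest to the highest group at 0 h, *Lcn2* stood at 847, 1132 and 5378 CPM, *Ly6g* at 5.29, 141 and 275 CPM, *Wfdc21* at 402, 1009 and 3350 CPM, and *Ifitm1* at 1450, 4886 and 10970 CPM. *Ifit3* ran the other way, at 1222, 1075 and 394 CPM, and *Il1b* at 8435, 8084 and 6037 CPM. At 6 h *Lcn2* stood at 2734, 3920 and 5687 CPM, *Ly6g* at 103, 202 and 369 CPM, *Ngp* at 15.9, 52.4 and 286 CPM and *Ccl3* at 5564, 4567 and 2896 CPM. The order of *Lcn2*, *Ly6g* and *Wfdc21* was thus the same in both libraries, while that of *Ifitm1* was not (3981, 3483 and 3207 CPM at 6 h). The lowest group at 0 h held 188965 UMIs, so its *Ly6g* level rests on very few UMIs. *Chil3*, higher in monocytes than in members, stood at 1164, 179 and 114 CPM at 0 h and at 850, 577 and 134 CPM at 6 h. The groups were not compared without the marker-bearing barcodes.

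Activation genes did not stop at the rule's boundary. At 6 h the 343 members with no *Cxcl3*, *Spp1* or *Il1a* UMI had 21265 CPM of *Cxcl2*, 2379 CPM of *Ccl3*, 20798 CPM of *Fth1* and 846 CPM of *Il1rn*. The 902 with such a UMI had 33081, 4830, 30851 and 1463 CPM. All 4 values were above those of all 0 h members (3797, 213, 8289 and 228 CPM), so 6 h levels above the 0 h level were found also in the members without any UMI of the 3 genes, while *Lcn2* was at 4322 and 4076 CPM and *Ifit3* at 24.8 and 18.9 CPM in these groups.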

How the data were processed

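The authors aligned droplet-based single-cell reads of left ventricular cells to mm10 with Cell Ranger (version 3.1.0 in the matrix headers) and deposited, without normalization, the UMI count of each gene in each barcode, as 1 matrix of 27998 genes for each of the groups IR0h and IR6h (4 labelled samples each). The deposited columns hold counts of barcodes and no sample names, so each matrix was 1 library and no test was made. Members were selected by the stated rule, and UMIs were summed per gene and group and divided by the group's total (CPM). Log2 CPM ratios carry exact conditional 95% intervals. CPM have exact Poisson and shares Clopper-Pearson intervals. For a bound against 0 UMIs the floor was 3 UMIs, and genes needed a mean of 100 CPM. Named genes were the markers, the genes of 26 lists, the 15 largest and 15 smallest ratios between libraries, and the 10 largest and smallest between members and other gated neutrophils in both libraries, with 2 to 5 examples per list by size of ratio and level. The 10 largest and smallest at 6 h alone and further list examples were chosen after their values were seen. The members and lists were chosen with earlier results of these data known. B cells held at least 3 *Cd79a* and *Cd79b* UMIs outside the gate. Doublets were not called, and an upper limit of 2500 genes was an alternative. Of 257 listed genes 4 were not found. For the 56 symbols that stand for more than 1 row, only the row with the matching Ensembl ID could be counted. Their other rows were left out of the counts of genes. Alternatives on markers and richest barcodes were chosen after seeing the data. The ratio step was tested on simulated data. Python 3.11.15, numpy 2.4.6, scipy 1.17.1, pandas 2.3.3 and matplotlib 3.10.9 were used. Depth in each library limits precision as the intervals show, and PCR copies are removed by the UMIs. Some genes are not reported here.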

Additional observations from a re-analysis of the deposited data

How the results depend on the processing

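No paired analysis was possible because each group's counts came as 1 matrix with no barcode tied to a sample, so no replicate could be left out either. Of the 94 named genes past 2-fold between the libraries, 94 stayed past it when *S100a8* and *S100a9* or mitochondrial genes were left out of the total, 93 with at most 10% mitochondrial UMIs, 92 with the rule applied at 500 UMIs, 89 with at most 2500 genes, 88 with at least 5% *S100a8* and *S100a9*, 83 with members thinned to 500 UMIs and 79 without any *Cxcl3*, *Spp1* or *Il1a* UMI. Of 88 with values, 65 stayed past it with under 2 UMIs of other cell types. In alternatives chosen after seeing the data, 72 of 92 stayed past it with macrophage and monocyte marker UMIs at most 0.1%, and 87 of 94 without the 2 barcodes richest in each gene.

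The share of members among passing barcodes at 6 h was 24.5% with at most 2500 genes, 16.4% with at most 10% mitochondrial UMIs, 13.6% with at least 5% *S100a8* and *S100a9*, 4.15% without *Cxcl3*, *Spp1* or *Il1a* UMIs, 13.7% with the rule at 500 UMIs, 2.45% with under 2 UMIs of other cell types and 13.7% with macrophage and monocyte markers at most 0.1%. At 0 h it was 1.34%, 0.290% and 0.949% in the third, sixth and seventh of these. Of the gate, members at 0 h were 94.4% with at least 5% *S100a8* and *S100a9*, 81.6% without *Cxcl3*, *Spp1* or *Il1a* UMIs, 78.6% with the rule at 500 UMIs, 16.8% with under 2 UMIs of other cell types and 55.1% with markers at most 0.1%. At 6 h these were 63.6%, 15.6%, 51.6%, 9.19% and 51.6%.

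Between the libraries 317 genes were higher and 796 lower of 3825 at a mean of at least 20 CPM. At 500 CPM they were 51 and 52 of 270, and 101 of 1063 were lower with markers at most 0.1%. The main setting had 156 and 198 of 1155. In the comparisons with other gated neutrophils below, the number of genes considered also changed with the setting, so the counts are not shares. Against other gated neutrophils at 6 h, the genes higher numbered 59 with at most 2500 genes, 118 without *Cxcl3*, *Spp1* or *Il1a* UMIs, 91 with under 2 UMIs of other cell types, 57 without *S100a8* and *S100a9* in the total, 59 thinned, 165 at 20 CPM and 5 at 500 CPM. The genes lower numbered 101 without *Cxcl3*, *Spp1* or *Il1a* UMIs, 21 with the rule at 500 UMIs, 52 with under 2 UMIs of other cell types, 77 at 20 CPM and 10 at 500 CPM. In both libraries the genes higher numbered 6 with the rule at 500 UMIs, 29 at 20 CPM and 2 at 500 CPM. Those lower numbered 24, 21, 5, 16, 23, 3 and 18 without *Cxcl3*, *Spp1* or *Il1a* UMIs, with under 2 UMIs of other cell types, without *S100a8* and *S100a9* in the total, thinned, at 20 CPM, at 500 CPM and with markers at most 0.1%.

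Shares of members with a UMI depended on depth. Without thinning, *Ngp* was found in 6.78% at 0 h and 17.0% at 6 h, *Cxcl2* in 78.0% and 99.8% and *Ifit3* in 66.7% and 3.69%. Thinned to 1000 UMIs, *Ngp* was found in 6.76% at 6 h, *Cxcl2* in 68.2% and 99.0%, and *Ifit3* in 54.9% at 0 h.

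Log2 ratios between the libraries turned positive for *Hba-a1*, *Hba-a2*, *Hbb-bs* and *Hbb-bt*, which are near-identical in pairs, with at most 2500 genes (2.83, 2.47, 1.95 and 1.81), with at least 5% *S100a8* and *S100a9* (2.98, 2.61, 2.19 and 2.11), with under 2 UMIs of other cell types (5.06, 5.63, 3.50 and 2.94), with markers at most 0.1% (2.37, 3.15, 1.77 and 2.30) and without the 2 richest barcodes (1.24, 0.78, 0.46 and 0.39). The last shows that single barcodes held these counts. They also turned for *Cd177* without *Cxcl3*, *Spp1* or *Il1a* UMIs (-0.15), for *Ngp* (0.53) and *Cybb* (1.27) with under 2 UMIs of other cell types, for *Ngp* (0.62), *Cybb* (0.83), *Csf1r* (0.84) and *Ly6c2* (0.0612) with markers at most 0.1%, and for *Ltf* (1.93) and *Ngp* (0.99) without the 2 richest barcodes. *Csf1r* and *Ly6c2* are among the markers that the limit of 0.1% is set on, so their values under it are no check on them. Beyond these constructions the cause was not tested. At 0 h 177 members and 19 other gated neutrophils limit what counts can show.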
